A study of Caenorhabditis elegans with 2 samples.

Results

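The places bound by ZTF-1, a zinc finger protein followed through a GFP tag, were described at 9 genes of the glyoxylate cycle and gluconeogenesis of Caenorhabditis elegans, of 19973 protein-coding genes on the nuclear chromosomes. They were icl-1, cts-1, mdh-1 and mdh-2 of the glyoxylate cycle, and pyc-1, pck-1, pck-2, fbp-1 and gpi-1 of gluconeogenesis. The genes were selected on their pathway and on deposited peak signals at pck-1 and icl-1 that were already known, so the values below describe the genes and test nothing. A peak was counted at a gene when its summit, the position of its highest signal, lay between 2 kb upstream of the gene's start and 2 kb downstream of its end.

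The data were 8 peak lists from chromatin immunoprecipitation followed by sequencing (ChIP-seq) in 2 biological replicates of 1 group. The worms were strain OP207, whose fosmid transgene (WRM0628B_D10) carries ztf-1 fused to 2XTY1, eGFP and 3XFLAG tags beside an unc-119 marker, so the protein followed was the product of a transgene rather than of an edited ztf-1 locus. They were L2 larvae of 28.5 hours, grown from synchronised L1 larvae that had been starved after bleaching, and chromatin sonicated to 200 to 800 bp was precipitated with an anti-GFP antibody. Whole animals were used, so a peak cannot be placed in a cell type, and no other genotype, feeding state or stage was compared.

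The glyoxylate cycle is a detour around the carbon-releasing steps of the tricarboxylic acid cycle. It lets an organism turn acetyl-CoA from fat into malate and oxaloacetate, from which gluconeogenesis makes sugar. Plants, fungi and bacteria have it and mammals lack it, but nematodes keep it through ICL-1, a bifunctional enzyme with isocitrate lyase and malate synthase activity, and in C. elegans it is best known from embryos, starved larvae and dauer larvae living on stored fat.

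The thresholded summits at pck-1 and icl-1 are shown because these pairs, each with a peak past the gene's end and one inside the coding sequence, were among the values on which the genes were selected. Of the 9 genes only these 2 had such a thresholded pair. Each is shown as the 101 bases around the summit, 5′ to 3′ on the plus strand of WBcel235 (ce11) as given in RefSeq, with the central 21 bases in capitals. These 4 peaks passed the authors' threshold, explained below with the lists. At both icl-1 peaks a summit called in a single replicate lay outside the printed bases. The peak of mdh-2, which did not pass, is added as another intergenic summit just past a gene's end. Both genes of the pairs and mdh-2 lie on the minus strand, so the printed strand runs opposite to the transcripts. In order, the windows are chrIII:62591-62691 (past the end of pck-1), chrIII:63959-64059 (coding sequence of pck-1), chrV:723940-724040 (past the end of icl-1), chrV:727646-727746 (coding sequence of icl-1) and chrIII:6606299-6606399 (past the end of mdh-2).
pck-1 past the end: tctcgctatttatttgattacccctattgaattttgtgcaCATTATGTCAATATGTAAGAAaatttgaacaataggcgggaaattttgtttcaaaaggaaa
pck-1 coding: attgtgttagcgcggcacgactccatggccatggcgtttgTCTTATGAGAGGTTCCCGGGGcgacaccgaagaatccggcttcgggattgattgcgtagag
icl-1 past the end: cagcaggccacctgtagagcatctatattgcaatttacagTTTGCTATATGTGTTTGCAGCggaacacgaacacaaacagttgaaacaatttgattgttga
icl-1 coding: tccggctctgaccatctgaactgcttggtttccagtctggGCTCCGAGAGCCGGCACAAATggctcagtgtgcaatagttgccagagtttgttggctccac
mdh-2 past the end: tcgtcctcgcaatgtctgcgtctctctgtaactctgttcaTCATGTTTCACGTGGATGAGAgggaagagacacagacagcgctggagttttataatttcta

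The members of each pair differed in base composition. The pck-1 window past the gene's end had 29.7% G and C, against 56.4% in the coding window. At icl-1 the window past the end had 39.6% G and C, against 55.4% in the coding window. Over the strongest peak of each of the 9 genes the median was 38.6% (28.7% to 49.5%), equal to the 38.6% over all 43349 merged peaks of the ranked list and below the 45.5% over the 214 merged peaks that passed the threshold.

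Words of 6 bases were looked for in these 101-base windows on both strands. The word AGCGCG, which had stood out in earlier results of these data, was present at 2 of the 43 ranked summits near the 9 genes, among them the coding summit of pck-1. It was present at 7.94% of all thresholded summits and at 1.43% of all ranked summits. CGCGCA, which can overlap it, was at 0 of the 43 summits, against 8.88% of thresholded and 1.72% of ranked summits. CACGTG, the same on both strands, was picked after it was seen at the mdh-2 summit, and was also at a weak peak of fbp-1 and one of gpi-1. It was present at 3.27% of thresholded and 2.19% of ranked summits. A word found or not found in a window is a description of the sequence alone.

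The authors' lists came from comparing the ranks of peaks between paired lists. The comparison was summed up as an irreproducible discovery rate (IDR), which is low where a peak ranks consistently high in both. A peak that was weak in both could have a high IDR even where its paired signals were close. A peak was called thresholded at an IDR of 0.01 or less. The list that compared the replicates with each other held 238 thresholded entries, which merged to 214 peaks. A further series-level list, here called the pooled list, held 162 entries merging to 156 peaks. Each replicate also had a list of its own, with 18 entries. The signal is the authors' measure of a peak's strength, deposited without a unit, and sequencing depth is unknown because no file used here gives read counts.

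A thresholded peak of the replicate-compared list lay in the windows of 3 of the 9 genes, icl-1, pck-1 and pyc-1, while 1.64% of all protein-coding genes had one. In the pooled list it was again 3 of the 9, icl-1, pck-1 and pck-2, beside 1.23% of all genes. In replicate 1's own list it was 0 of 9, beside 0.165% of all genes, and in replicate 2's own list 0 of 9, beside 0.165%. Since pck-1 and icl-1 were known to have thresholded peaks when the genes were chosen, their share of the first counts is not a result. None of these peaks reached a q-value of 0.05 in the series-level lists. The lowest q-value was 0.148, at pck-1, and 26 of the 214 merged thresholded peaks were at or below 0.05.

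At the IDR threshold in the replicate-compared list, the nearest entry inside was that of pyc-1, with an IDR of 0.00934, and the nearest outside was that of fbp-1, with 0.0122. At the edge of the windows, the summits just inside lay 1928 bp past the end of fbp-1 (signal 22.9) and 1869 bp past the end of pyc-1 (signal 29.7). Those just outside lay 2161 bp upstream of mdh-1 (signal 14.1) and 2270 bp past the end of pck-1 (signal 29.0). All of these edge peaks were weak beside the strongest peak of the same gene.

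The ranked list of the replicate comparison, which holds called regions whether or not they passed, put 43 merged peaks in the 9 windows, between 2 at mdh-1 and 7 at fbp-1. Of the summits, 10 lay upstream of the gene, 21 inside it and 12 past its end. A merged peak was placed by the summit of its strongest entry alone. The longest, at the start of pck-2, joined 8 entries over 2876 bp, and other summits in a merged peak were not counted. By annotation 14 were in coding sequence, 12 in introns, 12 between genes, 4 in 3′ untranslated regions and 1 in a 5′ untranslated region. Per kb of window the 9 genes had a median of 0.634 ranked peaks (0.381 to 0.782), against 0.453 over all protein-coding genes. Their windows were also longer, with a median of 7.67 kb against 6.03 kb.

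**Figure D1:**
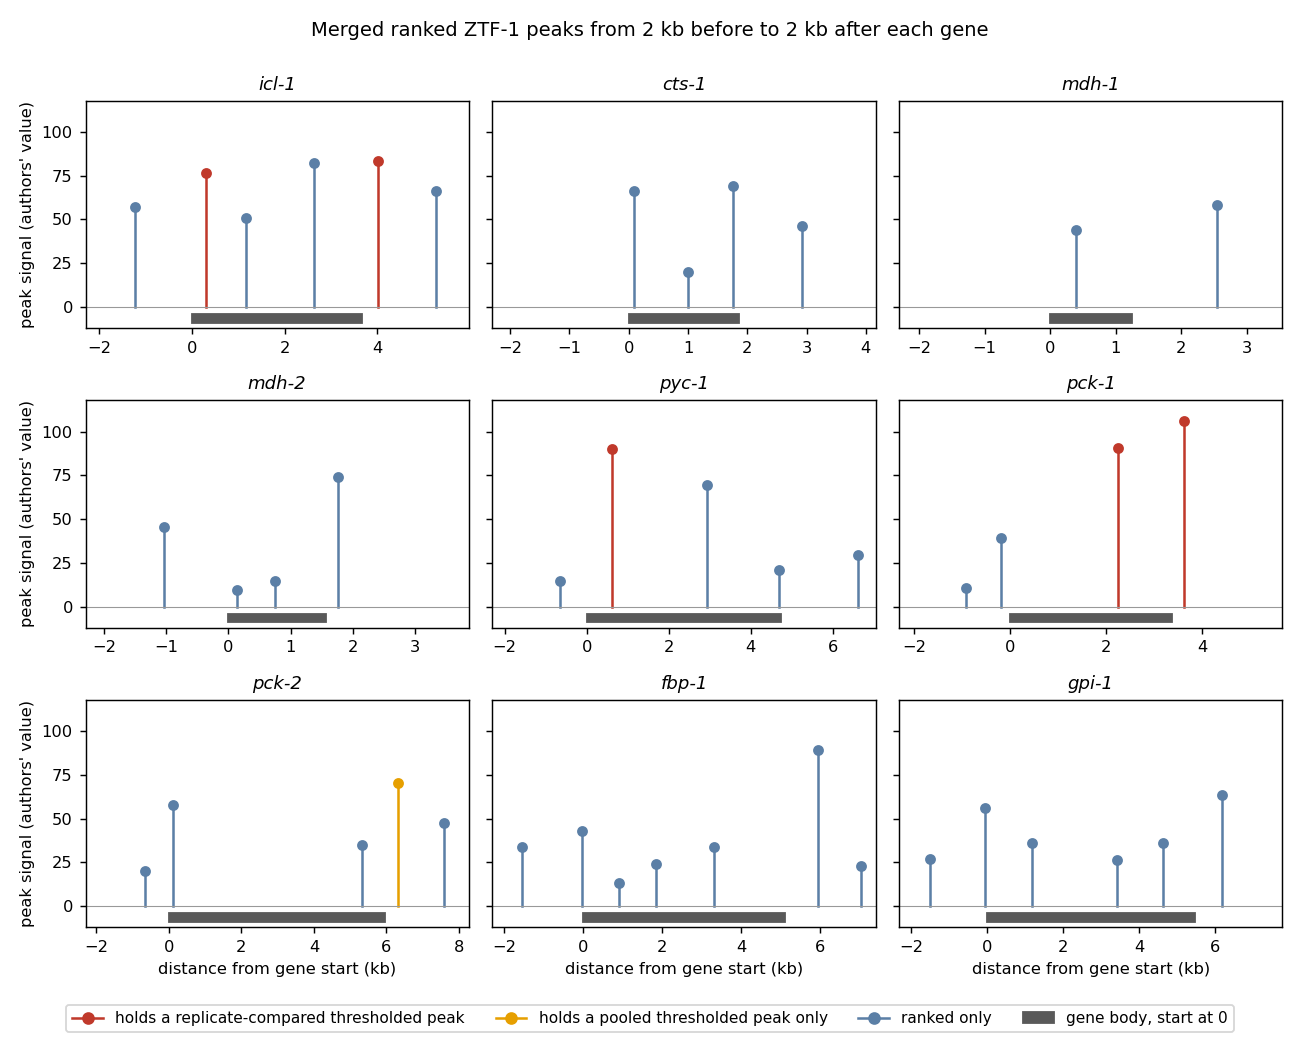
Merged ranked peaks around each of the 9 genes, with distance from the gene's start in kb along the horizontal axis in the direction of transcription, the gene's extent as a bar, and the authors' signal as the height of each point; colours mark merged peaks that hold a thresholded entry. The highest point of 7 genes stands to the right of the gene's end, and pck-1 has the tallest of all at 106.

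The peak map of the 9 genes shows where the strongest peaks lay. For 7 of the 9 genes the strongest ranked peak was downstream of the gene's end. For 2 (pyc-1 and cts-1) it was inside the gene, and for 0 it was upstream. The downstream summits of mdh-1, pck-2 and gpi-1 lay inside another gene, and that of icl-1 lay 38 bp from the start of the next gene. At icl-1 a peak inside the gene had nearly the same signal, 82.5 against 83.6. The pck-2 peak had a high IDR of 0.769 in this list. The peaks past the ends of pck-1 and icl-1 were known when the genes were chosen. Their share of the 7 is therefore not a result. Among all protein-coding genes the strongest peak was downstream at 29.1%, inside at 39.4% and upstream at 27.4%. Among the 4622 genes whose strongest peak was at least as strong as the weakest of the 9, it was downstream at 26.1%. The count rests on both replicates together. It was 4 of the 9 in replicate 1's own ranked list, beside 23.0% of all genes there, and 5 of the 9 in replicate 2's own list, beside 20.6%. The genes were mostly different, and only pck-1 and fbp-1 had it downstream in both of these lists. The shares of all genes include genes with no peak in the list, counted as not downstream, which lowers these shares. Of the 9 genes, all 9 had a peak in replicate 1's own list and 8 in replicate 2's.

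**Figure D2:**
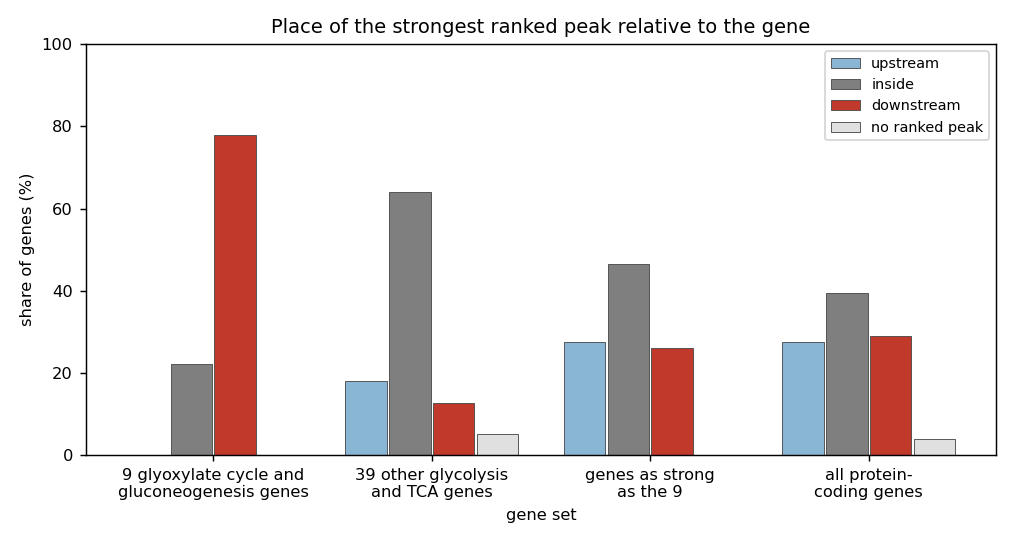
Share of genes, in percent, whose strongest ranked peak lay upstream of the start, inside the gene or downstream of the end, for the 9 genes, 39 other glycolysis and tricarboxylic acid (TCA) cycle genes, genes whose strongest peak was at least as strong as the weakest of the 9, and all protein-coding genes. The downstream share was 77.8% for the 9 genes, 12.8% for the 39, 26.1% for genes as strong and 29.1% for all. Genes with no ranked peak count in these shares as not downstream. The share of the 9 includes pck-1 and icl-1, whose peaks past the end were known when the genes were chosen. It also includes mdh-1, pck-2 and gpi-1, whose summits past the end lay inside another gene.

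The downstream position does not mean that starts were empty. A ranked summit lay within 500 bp of the start of 8 of the 9 genes, beside 44.2% of all genes. The exception was pyc-1, whose nearest merged summit was 627 bp after its start, although an overlapping entry merged into that peak had its own summit at 398 bp. A ranked summit lay within 500 bp of the end of 6 of the 9 genes, beside 43.2% of all genes, and mdh-1, fbp-1 and gpi-1 had none there. The summits near starts had signals between 9.67 at mdh-2 and 76.7 at icl-1. The highest of the 10 summits upstream of a start reached only 57.1, in an intron of srh-2 next to icl-1.

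Isocitrate lyase and malate synthase, the activities that define the glyoxylate cycle, are both encoded by icl-1 (WBGene00001564, chrV:724332-728004, minus strand). It had 6 ranked peaks, and its thresholded pair lay at opposite ends of the gene, with summits 3706 bp apart. The peak past the end, 342 bp downstream, had a signal of 83.6 and an IDR of 0.00669, with 42.7 in replicate 1 and 52.9 in replicate 2. The peak in the coding sequence, 308 bp after the start, had a signal of 76.7 and an IDR of 0.00384, with 60.7 in replicate 1 and 40.3 in replicate 2. The replicates thus differed in which peak of the pair was higher, and the peaks ranked 192 and 202 of the 214 by signal, near the bottom of the thresholded list. Their own summits also lay apart. In the replicates' own ranked lists the summit past the end was 247 bp away in replicate 1 and 41 bp in replicate 2. That of the coding peak was 50 bp away in replicate 1 and 199 bp in replicate 2. The replicate 2 summit lay toward the start of icl-1, near the intron summit of a second thresholded entry described below. At the pck-1 pair no such distance was above 60 bp.

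The downstream icl-1 summit was intergenic and only 38 bp upstream of the start of fbxb-72, the next gene, so it can be assigned to either gene. The pooled list held this summit (IDR 0.00986, 148 of 156 by signal) and not the one in the coding sequence. A second thresholded entry at the start of icl-1, with a summit in an intron 102 bp after the start and a signal of 31.7, drew on the same interval in each replicate and was merged with the coding peak. A further peak 2628 bp after the start had nearly the signal of the pair, 82.5, but did not pass (IDR 0.0518). It had 63.6 in replicate 1 and 23.8 in replicate 2, the widest gap between replicates among the 4 strongest icl-1 peaks. The icl-1 coding window had 1 other alignment in the genome when extended to 201 bp, at 82.1% identity over 201 bp on chromosome IV, where RefSeq places the pseudogene C08F11.14. The mapping of reads between these copies cannot be judged from peak lists.

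Citrate synthase, which joins acetyl-CoA to oxaloacetate, is encoded by cts-1 (WBGene00000833, chrIII:10214771-10216635, minus strand). Its strongest peak, with a signal of 68.9, was inside the gene in the 3′ untranslated region, 105 bp before the end, and its next, 66.0, was in coding sequence 95 bp after the start. The first had 35.6 in replicate 1 and 21.1 in replicate 2, and the second had 29.6 in replicate 1 and 28.4 in replicate 2. The strongest peak had an IDR of 0.182, and neither replicate's own ranked list held a summit within 250 bp of it. In replicate 1's own list the strongest cts-1 peak was the one after the start. In replicate 2's own list it was a peak with a signal of 37.8 upstream of the gene, at -718 bp from the start.

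Malate dehydrogenase turns malate into oxaloacetate and is encoded by mdh-1 and mdh-2. The strongest mdh-2 peak (WBGene00003162, chrIII:6606544-6608106, minus strand) was intergenic, 195 bp past the gene's end, with a signal of 74.1 and an IDR of 0.0385. It had 45.4 in replicate 1 and 30.1 in replicate 2, but replicate 2's own ranked list held no summit in the mdh-2 window. The strongest mdh-1 peak (WBGene00018491, chrV:6515283-6516526, minus strand) was the weakest of the 9 genes' strongest peaks, with a signal of 58.4 and an IDR of 0.132. It had 32.8 in replicate 1 and 26.1 in replicate 2, and it lay 1301 bp past the end, in an intron of dpy-11, 1258 bp after the start of that gene.

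Pyruvate carboxylase, which feeds oxaloacetate into gluconeogenesis from pyruvate, is encoded by pyc-1 (WBGene00004258, chrV:11817783-11822529, minus strand). Its strongest peak was in coding sequence 627 bp after the start, with a signal of 90.1 and an IDR of 0.0150, above the threshold. It had 43.1 in replicate 1 and 40.3 in replicate 2 (log2 ratio 0.10), the most even ratio among the 9 strongest peaks. The entry that passed overlapped it, with a summit in coding sequence 398 bp after the start, a lower signal of 50.8 and an IDR of 0.00934, and it ranked 213 of 214. Both entries used the same replicate 2 interval, so they are different pairings of the same stretch of replicate 2 signal. Interval sharing was not particular to it, since 40 of the 238 thresholded entries shared a paired interval with another entry.

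Phosphoenolpyruvate carboxykinase commits oxaloacetate to sugar synthesis and is encoded here by pck-1 and pck-2. A further carboxykinase gene, pck-3, was not among the 9 and was counted in the comparison list described last. Its strongest peak, inside the gene, had a signal of 58.6 and an IDR of 0.331, with 40.3 in replicate 1 and 14.5 in replicate 2. The pck-1 gene (WBGene00021043, chrIII:62888-66260, minus strand) had the strongest peak of the 9 genes, with a signal of 106 and an IDR of 0.00256, in intergenic sequence 247 bp past its end. It had 48.9 in replicate 1 and 54.7 in replicate 2. The coding peak, 2251 bp after the start and 1368 bp from the first, had a signal of 90.8 and an IDR of 0.00705, with 46.7 in replicate 1 and 45.4 in replicate 2. The replicates were closer at this pair than at that of icl-1.

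The pck-1 peaks ranked 76 and 160 of the 214 merged thresholded peaks, whose median signal was 98.3. Only the one past the end was in the pooled list, at 73 of 156. In replicate 2's own ranked list this peak had a q-value of 0.0382, the lowest at any of the genes there, and in replicate 1's own list 0.596. The nearest gene start was that of btb-5, 1496 bp away. At the start of pck-1 the peak was weak, with a signal of 39.0 at 183 bp upstream, 30.1 in replicate 1 and 9.11 in replicate 2. The coding window, extended to 201 bp, aligned to pck-2 over 194 bp at 75.3% identity, while the window past the end had 0 other alignments.

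The second carboxykinase gene, pck-2 (WBGene00011232, chrI:7866136-7872100, plus strand), was called only in the pooled list. Its peak had a signal of 70.6, lay 358 bp past the end in an intron of suro-1, and had an IDR of 0.00606 in the pooled list, at 153 of 156. In the replicate-compared ranked list the same entry had an IDR of 0.769, with 11.9 in replicate 1 and 10.7 in replicate 2. Those paired values were low for such a signal, which was 3.13 times their sum, against a median of 0.998 over all merged ranked peaks, of which 99.99% were below it. Peaks in the replicates' own ranked lists lay close by and were stronger, with 36.7 at 124 bp from the summit in replicate 1 and 43.9 at 160 bp in replicate 2. The paired values came from other intervals than those of these peaks. A further pck-2 peak, with a signal of 57.8, lay 108 bp after the start in the 5′ untranslated region, with 31.7 in replicate 1 and 21.6 in replicate 2.

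Fructose bisphosphatase, which removes a phosphate at an irreversible step of gluconeogenesis, is encoded by fbp-1 (WBGene00001404, chrI:2581015-2586124, minus strand). Its strongest peak, with a signal of 89.4, just missed the threshold and lay 843 bp past the end in intergenic sequence, 4152 bp upstream of the start of aat-5. It had 54.7 in replicate 1 and 33.9 in replicate 2. The peak at the fbp-1 start, 25 bp upstream, had a lower signal of 42.7, with 34.5 in replicate 1 and 8.32 in replicate 2.

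Glucose phosphate isomerase, shared by gluconeogenesis and glycolysis, is encoded by gpi-1 (WBGene00013597, chrI:13576148-13581611, plus strand). Its strongest peak had a signal of 63.6 and an IDR of 0.0941, with 29.5 in replicate 1 and 34.2 in replicate 2, 720 bp past the end in an intron of ubc-14. The 201 bp around this summit had 491 other alignments in the genome, the longest of 203 bp at 70.9% identity, and how reads were placed among these copies cannot be judged from peak lists. The peak 45 bp upstream of the gpi-1 start had a signal of 56.3, with 37.5 in replicate 1 and 25.5 in replicate 2. In the same search the strongest peaks of icl-1, cts-1, mdh-1, mdh-2, pyc-1, pck-1, pck-2 and fbp-1 had 0 other alignments.

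**Figure D3:**
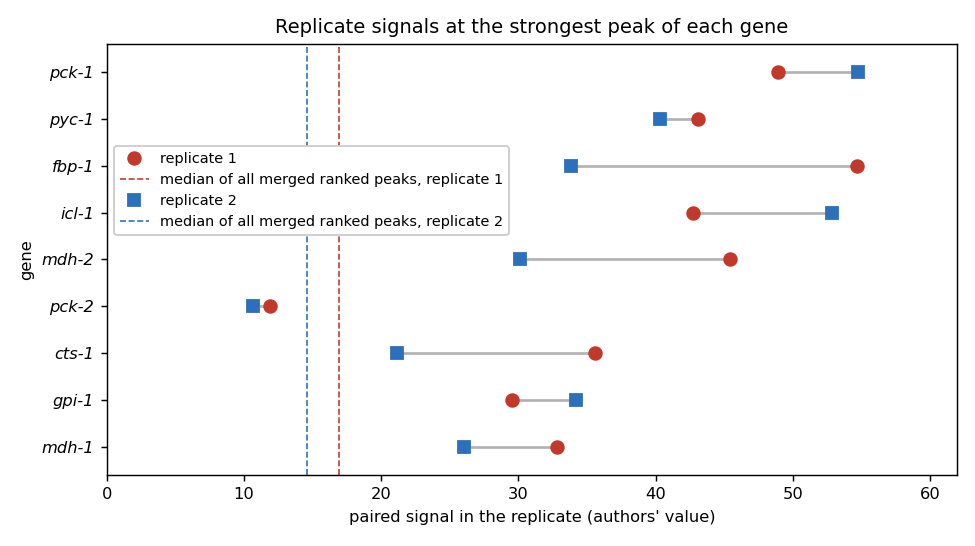
Signal paired from each replicate, in the authors' units, at the strongest peak of each of the 9 genes, which are ordered down the page by signal; circles are replicate 1, squares replicate 2 and dashed lines the medians over all merged ranked peaks. Both replicates stood to the right of their medians at 8 genes and to the left at pck-2.

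The strongest peaks of the 9 genes were compared with the spread between replicates. The paired signal had a median of 42.7 in replicate 1, against 16.9 over all merged ranked peaks, and of 33.9 in replicate 2, against 14.6 over all. The log2 ratio of replicate 1 to replicate 2 had a median of 0.16 over the 9 genes (SD 0.40, from -0.31 at icl-1 to 0.75 at cts-1). Over all merged ranked peaks the median was 0.16 (SD 1.12). The median of the 9 was the ratio at pck-2, whose paired values came from other intervals than the stronger peaks close by. Those stronger peaks had 36.7 in replicate 1 and 43.9 in replicate 2. By the paired values replicate 1 was higher at 6 genes, pck-2 among them, and replicate 2 at 3, icl-1, pck-1 and gpi-1. The gap between the paired values was widest at fbp-1, mdh-2 and cts-1, where replicate 1 was higher, and narrowest at pck-2 and pyc-1. Genes with close signals, such as pyc-1 and fbp-1, cannot be ordered with 2 replicates.

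Among all 19167 protein-coding genes with a ranked peak, the strongest signals of the 9 genes ran from 58.4 to 106 with a median of 74.1, against a median of 46.2 over all. The shares that follow are of all protein-coding genes, and the 4.0% with no ranked peak count as weaker. For pck-1, 99.3% of all protein-coding genes had a weaker strongest peak or none, for pyc-1 98.2%, for fbp-1 98.2% and for icl-1 97.0%. For mdh-2 it was 93.6%, for pck-2 91.3%, for cts-1 90.0%, for gpi-1 84.5% and for mdh-1 76.9%. Every one of the 9 was thus above the middle of all genes, but 23.1% of all genes were at or above the lowest of them. A strongest peak is a maximum over a window, and the windows of the 9 were longer, with a median of 7.67 kb against 6.03 kb. What window length adds to these shares was not tested. The signals at pck-1 and icl-1 were already known when the genes were chosen.

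The order of the genes differed between the series-level list and each replicate's own list. Here too, genes with no peak in a list count as below, which raises the shares. In replicate 1 the share of genes below was 99.4% for icl-1, 98.3% for fbp-1, 96.1% for pck-1 and 95.5% for pyc-1, and in replicate 2 it was 99.4% for pck-1, 99.3% for icl-1, 97.5% for pck-2 and 95.5% for pyc-1. At cts-1 it was 58.6% in replicate 1 and 93.2% in replicate 2, and at fbp-1 it was 87.4% in replicate 2, below cts-1 and gpi-1 there. The cts-1 share in replicate 1 rests on a signal of 29.6, just below the median of genes with a peak there. The strongest cts-1 peak of the series-level list, with 35.6 paired from replicate 1, had no summit within 250 bp in either of these own lists. The median strongest signal was 45.4 over the 9 genes in replicate 1, against 30.3 over all genes with a peak, and 39.1 over the 8 genes with a peak in replicate 2, against 25.6 over all.

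**Figure D4:**
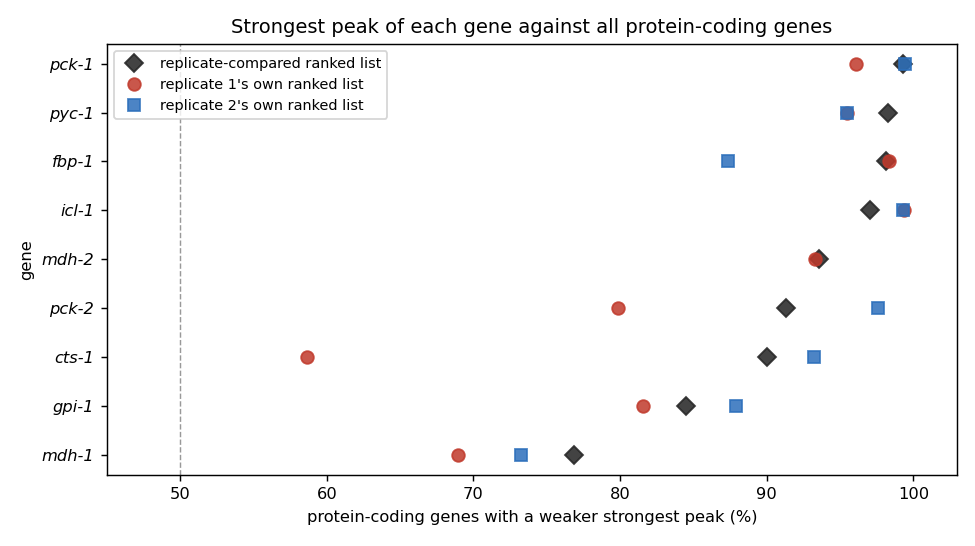
Percent of all protein-coding genes whose strongest ranked peak was weaker than that of each of the 9 genes, in the replicate-compared list and in each replicate's own list. Genes with no ranked peak in a list count as weaker there. The points of pck-1, pyc-1 and icl-1 lie above 95 in all 3 lists, those of cts-1 spread from 58.6 to 93.2, and mdh-2 has no peak in replicate 2's own list.

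Neighbouring steps of metabolism were read from a list of 41 other genes, 20 of glycolysis or linked to it, pck-3 among them, and 21 of the tricarboxylic acid cycle, of which 39 were matched in the annotation. Thresholded peaks lay at 2 of the 39 in both series-level lists, beside 1.64% of all protein-coding genes in the replicate-compared list and 1.23% in the pooled list. In either replicate's own list it was 0 of 39, beside 0.165% of all genes. The peaks that passed were at aco-1, an aconitase homologue (signal 96.7, in an intron of it, q-value 0.302), and at ogdh-2, an oxoglutarate dehydrogenase subunit (signal 95.7). The ogdh-2 summit lay in the coding sequence of lon-3, a gene that overlaps ogdh-2. The strongest peaks of the list had a median signal of 55.9, below the 74.1 of the 9 genes, and 16 of the 39 were at or above 58.4, the lowest of the 9. The strongest peak was downstream of the end at 5 of the 39, inside at 25, upstream at 7 and missing at 2, hxk-3 and tpi-1.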

How the data were processed

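ChIP-seq peak lists of 2 biological replicates in 1 group were used, on assembly ce11 per the labels. For the peak caller and the aligner, names and settings were not given in the sources used here. The authors deposited a signal value for each peak, with no unit stated. The deposited lists also give −log10 q-values and, in the ranked lists, −log10 IDR values, and these were turned back into q-values and IDR values. The list behind the conservative comparison is the replicate-compared list. Its first paired signal was assigned to replicate 1, since 53.9% of entries had an interval of that replicate's ranked list there and 0 had one of replicate 2. The second was assigned to replicate 2, with 44.9% of entries and 0 the other way.

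Overlapping entries (1 bp or more) were merged, keeping the summit with the highest signal. Gene models were those of Ensembl release 115 for WBcel235, the same assembly as ce11. In RefSeq 6 of the 9 genes had the same coordinates. Coordinates are 1-based, and 0 peak ends lay beyond a chromosome end. Python 3.11.15, pandas 2.3.3, numpy 2.4.6 and matplotlib 3.10.9 were used, and BLAST+ 2.17.0 searched 201 bp around summits against the genome at an E-value of 1e-05. The assignment of peaks to genes was checked on simulated data.

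The genes, the pathway list and the description of peak places were chosen with earlier results of these data known. With 1 group and genes chosen in this way no test was made. Depth is unknown, so no interval is given on a signal. The genes named are the 9 members, the genes at or next to their thresholded peaks, and pathway genes with a thresholded peak. The genes srh-2, dpy-11, aat-5, ubc-14, hxk-3, tpi-1, pck-3 and the pseudogene C08F11.14 fall outside that rule and were named after their values were seen. The alternatives tried were other windows, IDR thresholds, lists, a single replicate, and entries not merged.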

Additional observations from a re-analysis of the deposited data

How the results depend on the processing

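The count of 3 of 9 genes with a thresholded peak was the same with windows of 500 bp, 1 kb and 5 kb, with any base of the interval in the window, and in the pooled list, there with pck-2 in place of pyc-1. It was 5 at an IDR threshold of 0.05, where mdh-2 and fbp-1 joined, and 0 at 0.001, and ranged from 0 to 0 with either replicate left out. The background moved as well, as fewer or more peaks entered. Of all protein-coding genes 328 had a thresholded peak, against 217 with a window of 500 bp, 547 with 5 kb, 1359 at an IDR of 0.05, 69 at 0.001, and 33 to 33 when either replicate was left out. The 43 ranked peaks near the 9 genes were 101 as entries not merged, 38 in the pooled list, and 27 to 30 in a single replicate. The strongest peak was downstream at 7 genes, 7 in the pooled list, 4 without replicate 2 and 5 without replicate 1, an alternative chosen after seeing the data. The cause of that drop was not tested. The median log2 ratio of replicate 1 to replicate 2, which was the ratio at pck-2, was 0.16, and -0.05 after each was divided by its own median. No paired analysis was possible because there was 1 group. Without read counts, depth cannot be given for any peak, and the control experiment was not analysed here.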
